A study of Mus musculus with 4 samples.

Results

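The neutrophil granule and receptor genes were a set of 10 named genes, S100A8, S100A9, LCN2, CSF3R, NGP, CAMP, LTF, RETNLG, MPO and TREM1. They were chosen by symbol, as products of neutrophil granules and cytosol or as receptors on the neutrophil surface, and every row of the deposited table with one of these symbols was taken at both time points. Of the 10 genes, 6 were among the 14718 genes listed at either time, 5 of 14125 at 7 days post injury (dpi) and 6 of 11472 at 21 dpi. CSF3R, LCN2, S100A9, S100A8 and LTF were listed at both times, NGP was listed at 21 dpi only, and CAMP, RETNLG, MPO and TREM1 were listed at neither time.

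RNA was sequenced from spinal cord segments holding the lesion, after a moderate contusion at thoracic vertebra 9, in 4 groups of male targeted replacement mice: ApoE3 at 7 dpi, ApoE4 at 7 dpi, ApoE3 at 21 dpi and ApoE4 at 21 dpi. In these mice a human ApoE isoform takes the place of the mouse gene, and they were 3 to 5 months old when assigned to surgery. Each group held 3 mice, which the authors combined into 1 value per gene, so these values carry no spread between mice and the differences given here have no replicate check. Uninjured and sham-operated cord was not analysed here.

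Values are FPKM, fragment numbers scaled to transcript length and to the size of the library, which allows genes of unequal length to be compared within a group. Genotypes were compared as the log2 ratio of FPKM + 1 in ApoE3 to FPKM + 1 in ApoE4, so that positive means higher in ApoE3. The added 1 understates the change of genes with low FPKM. A gene was called higher in a genotype where the fold on this scale was at least 1.3. Where 2 values follow each other without a group, the first is ApoE3 and the second is ApoE4. The number of reads behind each value is unknown. The table can also be read with the genotypes of its value columns exchanged, because its comparison is named ApoE3 versus ApoE4 whereas its column numbering pairs the numerator with ApoE4. The first reading, which is also the study's own, was used. The other one would exchange ApoE3 and ApoE4 in every value given here, those within a genotype included. Ratios between the genotypes would change sign and keep their size.

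Neutrophils are short-lived white blood cells that are among the first to enter an injured spinal cord from the blood. They load their granules in sequence while they mature in the marrow: primary granules with MPO and serine proteases first, secondary granules with LTF, CAMP, NGP and LCN2 later, while S100A8 and S100A9 fill the cytosol of the mature cell. Some of these genes are also active elsewhere, since reactive astrocytes make LCN2, mouse microglia carry CSF3R transcripts, and monocytes hold S100A8 and S100A9. In segments of whole tissue, fewer cells of a type and less RNA per cell cannot be told apart.

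Most genes that are widely used to define neutrophils were not in the table. LY6G, CXCR1, CXCR2, FPR1, FPR2 and RETNLG were not listed at either time, nor were any of the 7 primary granule genes (MPO, ELANE, PRTN3, CTSG, BPI, MS4A3 and PRSS57). A gene that is not listed cannot be taken as silent. Every listed gene had at least 0.823 FPKM at 7 dpi, or 0.947 FPKM at 21 dpi, in the genotype where it was higher, so a gene above that level in only 1 genotype had to be higher there. Of the set this holds for LTF at 7 dpi and NGP at 21 dpi, and their directions at those times follow from being listed. P2RY12 and CX3CR1, which resting microglia carry in abundance, were missing at both times, and CD68 was missing at 21 dpi after 1309 FPKM in ApoE3 and 1696 FPKM in ApoE4 at 7 dpi. Of the 6 listed genes, CSF3R, LCN2, S100A8 and S100A9 thus have known sources besides neutrophils, and LTF and NGP were below 2 FPKM in every group where they were listed.

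The order of levels was the same in all 4 groups, with CSF3R highest, followed by LCN2, S100A9, S100A8 and LTF. CSF3R accounted for 90.7% of the summed FPKM of these 5 genes in ApoE3 and 95.1% in ApoE4 at 7 dpi. At 21 dpi its share was 82.9% in ApoE3 and 79.0% in ApoE4. CSF3R lay above 96.0% of listed genes in ApoE3 at 7 dpi, whereas S100A8 lay above 14.0% and LTF above 0.581%. The set thus joined 1 abundant receptor transcript to granule and cytosolic transcripts of middling to very low level, and a sum over the set mostly reads CSF3R.

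**Figure D1:**
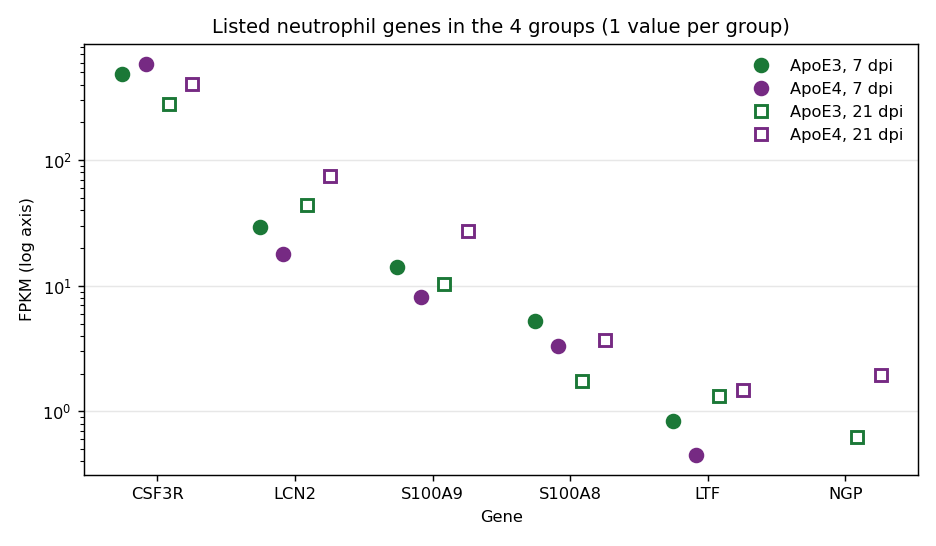
FPKM on a log axis of the 6 listed genes, with filled circles for 7 dpi and open squares for 21 dpi, green for ApoE3 and purple for ApoE4, 1 point per group. CSF3R was between 279 and 589 FPKM in the 4 groups, the other genes were at or below 75.2 FPKM, and NGP has points at 21 dpi only.

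At 7 dpi, 3 of the 5 listed genes were higher in ApoE3, S100A9, LCN2 and S100A8, and none was higher in ApoE4. Over all 14125 listed genes, ApoE3 was higher for 3.78% and ApoE4 for 4.76%. The median log2 ratio was 0.53 for the 5 genes and 0.00 for all genes. At 21 dpi, 5 of the 6 listed genes were higher in ApoE4, all except LTF, and none was higher in ApoE3. That count stands beside a background in which ApoE4 was higher for 58.9% of all 11472 listed genes and ApoE3 for 2.02%. The median log2 ratio of all genes was -0.42 at 21 dpi, with 93.8% of genes below 0, and that of the 6 genes was -0.76. After the median of all genes was subtracted, which gives the centred ratios below, 2 of the 6 genes, S100A9 and NGP, were higher in ApoE4 and none was higher in ApoE3. Without NGP, whose direction follows from its listing, the counts were 4 of 5 genes before centring and 1 of 5 after it. Of all genes, 58.9% were higher in ApoE4 before centring. After centring, 8.06% were higher in ApoE4 and 7.47% in ApoE3.

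**Figure D2:**
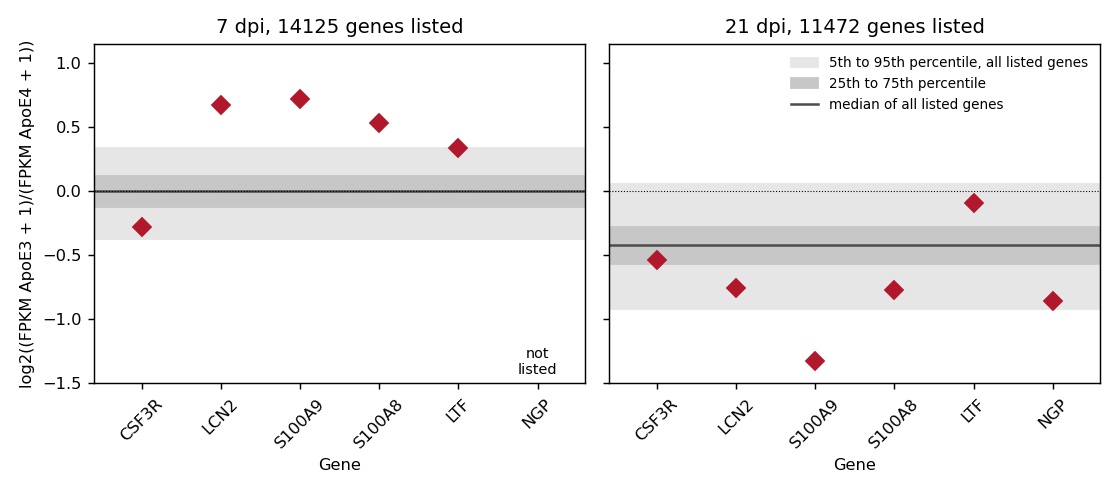
The log2 ratio of FPKM + 1 in ApoE3 to that in ApoE4 for each listed gene (diamonds) at 7 dpi (left) and 21 dpi (right), over percentiles 5 to 95 (light band) and 25 to 75 (dark band) of all listed genes and their median (line). LCN2, S100A9 and S100A8 lie above the light band at 7 dpi, and at 21 dpi the all-gene median is at -0.42 and S100A9, at -1.33, lies below the band.

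S100A8 and S100A9 encode the subunits of calprotectin, a calcium- and zinc-binding complex that makes up much of the neutrophil cytosol and acts on TLR4 and AGER once released. S100A9 had 14.1 FPKM in ApoE3 and 8.19 FPKM in ApoE4 at 7 dpi, and 10.3 FPKM in ApoE3 and 27.4 FPKM in ApoE4 at 21 dpi. The highest value was thus in ApoE4 at 21 dpi and the lowest in ApoE4 at 7 dpi, with both ApoE3 values between them. The log2 ratio was 0.72 at 7 dpi, a size reached or passed in that direction by 109 genes, 0.772% of those listed. At 21 dpi the log2 ratio was -1.33, reached or passed by 160 genes, 1.39% of those listed. Relative to the median of all genes it was -0.90, the largest centred ratio of the 6 genes.

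S100A8 was lower than S100A9 in every group, with 5.28 FPKM in ApoE3 and 3.34 FPKM in ApoE4 at 7 dpi, and 1.73 FPKM in ApoE3 and 3.67 FPKM in ApoE4 at 21 dpi. Here the highest and the lowest value both belonged to ApoE3, and the ApoE4 values lay close together. The log2 ratio was 0.53 at 7 dpi and -0.77 at 21 dpi, or -0.35 when centred, which was short of a fold of 1.3. The level of S100A9 over that of S100A8 was 2.68 in ApoE3 and 2.45 in ApoE4 at 7 dpi. At 21 dpi it was 5.96 in ApoE3 and 7.46 in ApoE4, so S100A9 outweighed S100A8 by more at the later time in both genotypes. This quotient is taken within a group and is not moved by a scaling of that group.

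LCN2 encodes lipocalin 2, which withholds iron from bacteria by binding their siderophores and is stored in secondary granules. LCN2 had 29.4 FPKM in ApoE3 and 18.1 FPKM in ApoE4 at 7 dpi, and 44.2 FPKM in ApoE3 and 75.2 FPKM in ApoE4 at 21 dpi. Both later values were above both earlier ones. The log2 ratio was 0.67 at 7 dpi, reached or passed in that direction by 129 genes, 0.913% of those listed. At 21 dpi it was -0.75, reached or passed by 1173 genes (10.2%), and -0.33 when centred. LCN2 is also in the list of reactive astrocyte genes, where it was the only gene of 10 called higher in ApoE3 at 7 dpi. GFAP, the intermediate filament of astrocytes, had 12395 FPKM in ApoE3 and 12386 FPKM in ApoE4 at that time.

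S100A9, LCN2 and S100A8 thus passed the fold in favour of ApoE3 at 7 dpi and in favour of ApoE4 at 21 dpi. Of the 10879 genes listed at both times, 267 (2.45%) did so. Only 418 of the 10879 were higher in ApoE3 at 7 dpi, so the 267 were most of the genes that could. At 21 dpi ApoE4 was higher for 58.9% of all listed genes. After both medians were subtracted, 92 of the 10879 (0.846%) did so, among them S100A9 but not S100A8 or LCN2. Whether the ratio differed between the times was not tested. The 250 bases before the transcription starts of these 3 genes are shown beside those of CSF3R, which had the opposite direction at 7 dpi. The 4 genes were picked by these ratios, and the 3 did not share a direction over time in ApoE3, so nothing is read from the contrast between their promoters. RefSeq promoters of GRCm38.p6 were matched for all 10 genes. Capitals mark matches, on either strand, to a C/EBP motif (TTNNGNAA) or a PU.1 motif (GAGGAA), factors known to act in granulocyte development, and the windows are S100A8 at chr3:90668821-90669070 on the plus strand, S100A9 at chr3:90695722-90695971 on the minus strand, LCN2 at chr2:32387740-32387989 on the minus strand and CSF3R at chr4:126024409-126024658 on the plus strand.
S100A8: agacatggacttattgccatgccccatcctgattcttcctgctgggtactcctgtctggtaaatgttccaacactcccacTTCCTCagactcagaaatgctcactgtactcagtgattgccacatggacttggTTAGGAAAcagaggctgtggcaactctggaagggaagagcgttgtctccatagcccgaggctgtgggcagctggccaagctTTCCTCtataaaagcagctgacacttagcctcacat
S100A9: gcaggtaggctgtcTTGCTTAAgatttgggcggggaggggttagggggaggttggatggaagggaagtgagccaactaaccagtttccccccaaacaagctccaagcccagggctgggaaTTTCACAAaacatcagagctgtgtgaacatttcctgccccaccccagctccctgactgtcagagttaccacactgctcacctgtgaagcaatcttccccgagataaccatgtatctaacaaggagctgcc
LCN2: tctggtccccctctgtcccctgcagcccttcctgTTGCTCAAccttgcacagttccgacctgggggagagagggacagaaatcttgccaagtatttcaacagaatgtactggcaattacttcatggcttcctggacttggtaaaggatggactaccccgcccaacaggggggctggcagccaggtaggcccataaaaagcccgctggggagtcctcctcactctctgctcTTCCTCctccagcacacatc
CSF3R: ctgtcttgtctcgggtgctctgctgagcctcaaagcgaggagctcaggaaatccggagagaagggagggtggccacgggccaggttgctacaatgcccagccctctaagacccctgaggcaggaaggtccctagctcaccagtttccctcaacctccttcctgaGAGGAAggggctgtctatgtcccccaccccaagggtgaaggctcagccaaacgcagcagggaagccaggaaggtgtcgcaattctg
The C/EBP letters were in S100A8 and LCN2 at 1 place each, in S100A9 at 2 places and in CSF3R at none. PU.1 letters were in S100A8 at 2 places and in LCN2 and CSF3R at 1 place each. No 2 capital runs overlapped. Over the 10 genes, 7 windows held a C/EBP match and 6 a PU.1 match, and over 32851 RefSeq windows of the same length the shares were 36.8% and 23.3%. For NF-kB the outcome depended on the letters searched: the consensus motif was in CSF3R alone of the 10 and in 7.25% of all windows, a looser form (GGGNNTTNC) was in S100A9 alone, overlapping a C/EBP match there, and in 13% of all, and a narrower form, in 4.11% of all windows, was in none of the 10. A TATA box (TATAAA) was in S100A8 alone of the 10 and in 12.4% of all. These matches describe letters in a window and were not tested for binding. S100A8 and S100A9 are next to each other among protein-coding genes of the RefSeq annotation, and CAMP, NGP and LTF are on chromosome 9 but not adjacent.

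LTF encodes lactoferrin, the iron-binding protein of secondary granules. LTF had 0.831 FPKM in ApoE3 and 0.448 FPKM in ApoE4 at 7 dpi, and 1.32 FPKM in ApoE3 and 1.48 FPKM in ApoE4 at 21 dpi. These were the lowest levels among the 5 genes listed at both times, at or below 1.48 FPKM in all groups. The log2 ratio was 0.34 at 7 dpi and -0.09 at 21 dpi, neither past a fold of 1.3, and centring turned the second to 0.33. At such low levels the first depended on the pseudocount: with 0.1 it was 0.76 and with 0.01 it was 0.88, both past the fold, in the direction that its listing at 7 dpi fixed.

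NGP encodes neutrophilic granule protein, a cystatin-related product of secondary granules in the mouse. NGP was not listed at 7 dpi and had 0.620 FPKM in ApoE3 and 1.94 FPKM in ApoE4 at 21 dpi. As NGP was above the lowest listed level in ApoE4 only, the sign of its log2 ratio, -0.86 or -0.44 when centred, is no finding. It was at a level that 3.55% of genes in ApoE4 and 0.898% in ApoE3 fell below. CAMP, the precursor of the cathelicidin peptide of the same granules, was listed at neither time.

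RETNLG, a resistin-like protein secreted by mouse neutrophils, and MPO, the peroxidase of primary granules, were not listed at 7 or 21 dpi. TREM1, a receptor that amplifies inflammatory signals through the adaptor TYROBP, was not listed either. TYROBP itself had 274 FPKM in ApoE3 and 318 FPKM in ApoE4 at 7 dpi and was not listed at 21 dpi.

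CSF3R encodes the receptor of granulocyte colony-stimulating factor (G-CSF), the cytokine that drives neutrophil production and release. CSF3R had 485 FPKM in ApoE3 and 589 FPKM in ApoE4 at 7 dpi, and 279 FPKM in ApoE3 and 405 FPKM in ApoE4 at 21 dpi. Of the 5 genes listed at both times, it alone had the larger value in ApoE4 at each. The log2 ratio was -0.28 at 7 dpi, short of a fold of 1.3, and -0.54 at 21 dpi, which passed it. Relative to the median of all genes the later ratio was -0.11, and 30.0% of listed genes had an equal or lower ratio at that time.

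The genes whose 4 values followed those of CSF3R most closely were GLMP, LYL1 and TNFRSF1A, among 10863 other genes listed at both times with a mean of at least 1 FPKM. Likeness was the Euclidean distance between log2(FPKM + 1) values centred on each gene's own mean over the 4 groups. GLMP, a lysosomal membrane protein, was at a distance of 0.023, with 157 FPKM in ApoE3 and 193 FPKM in ApoE4 at 7 dpi, and 89.5 FPKM in ApoE3 and 129.5 FPKM in ApoE4 at 21 dpi. The distance was 0.053 for LYL1, a transcription factor of blood cells, and 0.059 for TNFRSF1A, a receptor of tumour necrosis factor. S100A8 was at a distance of 0.61, with 2161 genes closer to CSF3R than it was. LTF was at 1.34 with 7593 genes closer, S100A9 at 1.56 with 8873 and LCN2 at 2.07 with 10455, so most genes were nearer to CSF3R than these 3 of the set.

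The values at 21 and 7 dpi come from separate comparisons that may have been normalized separately, so levels set across the times are a description. In ApoE3, 1 of the 5 genes listed at both times, LCN2, was higher at 21 dpi by a fold of at least 1.3, and 3 were lower, S100A8, CSF3R and S100A9. The shares of all 10879 genes were 31.3% higher and 23.6% lower, or 26.6% and 27.7% after the median of all genes, 0.09, was subtracted. In ApoE4, 3 of the 5 genes were higher at 21 dpi, LCN2, S100A9 and LTF, and 1 was lower, CSF3R. There 59.0% of all genes were higher and 10.9% lower, or 26.1% and 28.6% after the median of 0.53 was subtracted.

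LCN2 had log2 ratios of 21 to 7 dpi of 0.57 in ApoE3 and 2.0 in ApoE4, or 0.48 and 1.47 when centred, and in ApoE4 117 genes (1.08%) reached or passed its ratio. S100A9 had -0.42 in ApoE3 and 1.63 in ApoE4, or -0.51 and 1.10 when centred, the only gene of the set called in opposite directions in the 2 genotypes. For S100A8 the log2 ratios were -1.20 and 0.11, and centring turned the second to -0.42. CSF3R had -0.80 and -0.54, or -0.89 and -1.07 when centred, lower at 21 dpi in both genotypes on either scale. LTF had 0.34 and 0.77, or 0.25 and 0.25 when centred.

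**Figure D3:**
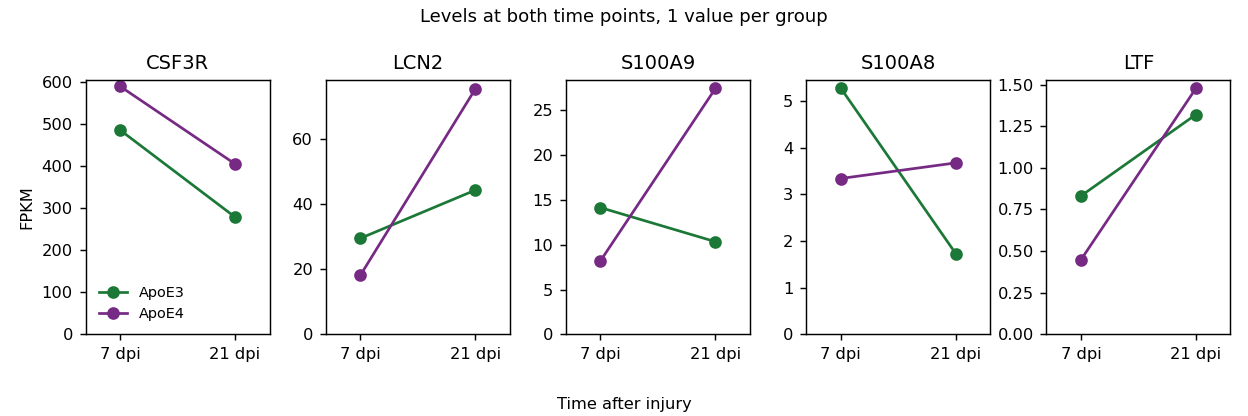
FPKM (vertical axes, each starting at 0) at 7 and 21 dpi for the 5 genes listed at both times, ApoE3 in green and ApoE4 in purple, 1 value per group. Lines only join the values of a genotype. The lines cross for LCN2, S100A9, S100A8 and LTF and do not cross for CSF3R, which fell from 485 to 279 FPKM in ApoE3 and from 589 to 405 FPKM in ApoE4.

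Granule genes did not all share the direction of LCN2 at 7 dpi. For this list and those that follow, counts higher in ApoE4 at 21 dpi stand beside the 58.9% of all genes given above, or 8.06% when centred, and those at 7 dpi beside 4.76%. Of 12 secondary and tertiary granule genes 8 were listed, of which LCN2 alone was higher in ApoE3 and 2, CHIL3 and MMP8, were higher in ApoE4, with a median log2 ratio of -0.27. CHIL3, a chitinase-like protein of neutrophils and alternatively activated macrophages, had 5.30 FPKM in ApoE3 and 10.6 FPKM in ApoE4, and ITGAM, the integrin subunit CD11b that microglia also carry, was the most abundant with 48.9 and 58.3 FPKM. MMP8, the neutrophil collagenase, had 2.01 and 3.31 FPKM. At 21 dpi 8 of the 12 were again listed, with 1 higher in ApoE3 (CHIL3, with 1.14 and 0.443 FPKM), 5 higher in ApoE4 and a median of -0.75. When centred, 1 was higher in ApoE3 and 2 in ApoE4. HP, the haemoglobin-binding protein haptoglobin, had the lowest log2 ratio, -2.32, with 0.386 FPKM in ApoE3 and 5.90 FPKM in ApoE4. The directions of HP and CHIL3 at 21 dpi likewise follow from being listed.

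Of 21 genes of the neutrophil surface and cytosol, S100A8 and S100A9 included, 5 were listed at each time. At 7 dpi 2 were higher in ApoE3, S100A8 and S100A9, and 1 was higher in ApoE4, with a median log2 ratio of 0.14. That 1 was PADI4, the enzyme that citrullinates histones in neutrophils, with 2.23 FPKM in ApoE3 and 3.75 FPKM in ApoE4. At 21 dpi 4 were higher in ApoE4 and none in ApoE3, with a median of -0.77, and centred S100A9 alone passed. G0S2, a lipase inhibitor, then had the highest mean of both genotypes with 21.4 and 26.1 FPKM, a log2 ratio of -0.28 that centring turned to 0.14.

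The list around CSF3R held 13 genes of the G-CSF axis and granulocyte transcription factors. At 7 dpi 9 of them were listed, 5 were higher in ApoE4 and none in ApoE3, and the median was -0.38. CSF2RA, a subunit of the GM-CSF receptor, was the most abundant with 1156 FPKM in ApoE3 and 1613 FPKM in ApoE4. CEBPD, a C/EBP family factor, had the lowest ratio, with 3.61 and 7.40 FPKM, and STAT3, which relays the signal of the G-CSF receptor, had 205 and 198 FPKM. At 21 dpi 6 were listed, 5 were higher in ApoE4 and none in ApoE3, with a median of -0.52, near the -0.42 of all genes. When centred, 2 were higher in ApoE4 and the median was -0.10. SPI1, which is PU.1, had 26.6 and 49.5 FPKM. CSF3, the ligand of CSF3R, and CEBPE and GFI1, which act in neutrophil maturation, were not listed at either time.

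Of 13 neutrophil attractants and adhesion genes, 6 were listed at 7 dpi with 2 higher in ApoE4, none higher in ApoE3 and a median of -0.13. CXCR4, which holds neutrophils in the marrow, had 81.5 FPKM in ApoE3 and 107 FPKM in ApoE4, C5AR1, the receptor of C5a, had 30.7 and 25.6 FPKM, and CCL3, a chemokine, had 17.6 and 23.5 FPKM. At 21 dpi 5 were listed, 3 higher in ApoE4 and none in ApoE3, with a median of -0.66 and 1 higher in ApoE4 when centred, CCL3 with 11.3 and 31.8 FPKM. CXCL12, the ligand of CXCR4, was then the most abundant with 61.7 and 70.7 FPKM, and its log2 ratio of -0.19 became 0.23 when centred. CXCL2, CXCL3, CXCL5 and PPBP, ligands of CXCR2, were not listed at either time, and CXCL1 had 0.799 and 0.859 FPKM at 7 dpi only.

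Among 12 ligands, receptors and partners of the set, 9 were listed at 7 dpi, 1 was higher in ApoE4 and none in ApoE3, with a median of -0.27. The 1 was CD14, a co-receptor of TLR4, with 20.4 FPKM in ApoE3 and 31.9 FPKM in ApoE4. TREM2, a relative of TREM1 on microglia, was the most abundant with 460 and 561 FPKM, and PGLYRP1, a granule protein that binds TREM1, had 4.79 and 4.34 FPKM. At 21 dpi 6 were listed, 5 higher in ApoE4 and none in ApoE3, with a median of -0.69, and 2 were higher in ApoE4 when centred. Both counts include LY96, with 0.812 FPKM in ApoE3 and 2.90 FPKM in ApoE4, whose direction likewise follows from being listed. HCST, a signalling adaptor, had the lowest ratio with 4.18 and 11.2 FPKM, and LRP1, an endocytic receptor, was the most abundant with 180 and 255 FPKM.

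All 6 NADPH oxidase genes, whose products make the oxidative burst of neutrophils, macrophages and microglia, were listed at both times. At 7 dpi none passed the fold, and all 6 had larger values in ApoE4, with a median log2 ratio of -0.29. CYBA was the most abundant with 408 FPKM in ApoE3 and 522 FPKM in ApoE4, and NCF1 had the lowest ratio with 137 and 177 FPKM. At 21 dpi all 6 were higher in ApoE4, with a median of -0.71, and 2 when centred. CYBA then had 139 and 218 FPKM, and NCF4 had the lowest ratio with 15.9 and 31.5 FPKM.

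Markers of the other cells that carry some of these genes are set beside them, and their part in the ratios of the set was not tested. Of 13 monocyte and macrophage genes, all were listed at 7 dpi, with 6 higher in ApoE4, none higher in ApoE3, a median of -0.37 and a sum of 7609 FPKM in ApoE3 and 9975 FPKM in ApoE4. LYZ2 was the most abundant with 4522 and 6076 FPKM, ARG1 had the lowest ratio with 16.5 and 39.0 FPKM, and MRC1 the highest with 2.02 and 1.88 FPKM. At 21 dpi 7 were listed, all higher in ApoE4 and 4 of them when centred, with a median of -0.81 and a sum of 363 and 685 FPKM. LYZ2 had 212 and 426 FPKM, and MS4A7 had the lowest ratio with 9.57 and 28.6 FPKM. At 7 dpi 11 of these 13 genes, all except MRC1 and ADGRE1, had a larger value in ApoE4, as CSF3R did and as 49.6% of all listed genes did.

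Of 10 microglia genes, 8 were listed at 7 dpi, with 1 higher in ApoE4 and none in ApoE3, 4 on each side of 0, and a sum of 1597 FPKM in ApoE3 and 1771 FPKM in ApoE4. FCRLS had the lowest ratio with 230 and 301 FPKM, and SALL1 had the highest with 47.7 and 42.6 FPKM. At 21 dpi 6 were listed, all higher in ApoE4 and 3 when centred, with a median of -0.80 and a sum of 498 and 906 FPKM. AIF1 was the most abundant with 166 and 320 FPKM, and FCRLS had the lowest ratio with 54.0 and 109 FPKM.

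All 10 reactive astrocyte genes were listed at both times. At 7 dpi LCN2 was higher in ApoE3 and SERPINA3N, a secreted protease inhibitor with 821 FPKM in ApoE3 and 1083 FPKM in ApoE4, was higher in ApoE4. The median was -0.05, and the sum, mostly GFAP, was 14333 and 14725 FPKM. At 21 dpi 7 were higher in ApoE4 and none in ApoE3, with a median of -0.50 and a sum of 9331 and 17081 FPKM, and 2 were higher in ApoE3 and 1 in ApoE4 when centred. GFAP had 8201 and 15313 FPKM, a centred ratio of -0.48, and CP, the copper protein ceruloplasmin, had 51.0 and 46.6 FPKM. LCN2, with -0.33 centred, lay between them.

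Of 17 genes of marrow precursors and erythroid cells, 8 were listed at 7 dpi and none passed the fold, with a median of 0.04 and a sum of 726 FPKM in ApoE3 and 705 FPKM in ApoE4. CAR2, a carbonic anhydrase that oligodendrocytes also make, was the most abundant and had the highest ratio, with 227 and 207 FPKM, and CD79B, a B cell receptor subunit, had the lowest with 2.46 and 3.28 FPKM. At 21 dpi 6 were listed, 2 higher in ApoE4 and none in ApoE3, with a median of -0.35 and a sum of 1364 and 1806 FPKM, and 1 was higher in ApoE4 when centred. HBA-A1, a haemoglobin chain, had 458 and 590 FPKM, and CD79B had 1.19 and 3.03 FPKM. KLF1, VPREB1, RAG1 and DNTT were not listed at either time. None of the 7 mast cell and basophil genes (CPA3, CMA1, TPSB2, MCPT4, MCPT8, FCER1A and MS4A2) was listed at either time.

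**Figure D4:**
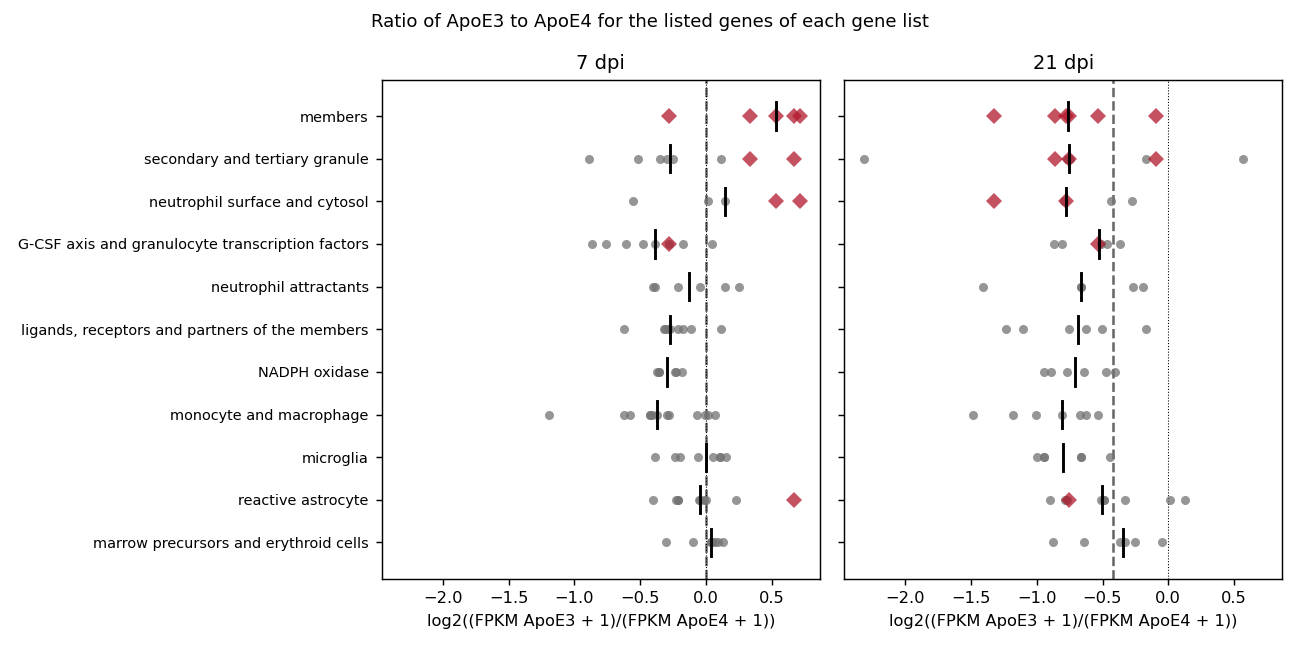
The log2 ratio of ApoE3 to ApoE4 (horizontal axis) for every listed gene of each list at 7 dpi (left) and 21 dpi (right), with red diamonds for genes of the neutrophil set, grey circles for other genes, a black bar for each list's median and a dashed line for the median of all genes. In the top row, 4 of the 5 diamonds lie to the right of 0 at 7 dpi and all 6 lie to the left of it at 21 dpi.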

How the data were processed

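The authors aligned single-end reads, after reducing every library to the same number of reads, and deposited FPKM with 1 added, as 1 pair of values, ApoE3 and ApoE4, per gene and time. The submitters' processing notes name STAR 2.5.4b, Bowtie2 2.1.10, SAMtools 0.1.7 and Cuffdiff 1.3.0. The genome build is not given in the sources used here. The study's methods mention 1 replicate with a lower aligned share, without naming its group. The values of the authors' p-values, q-values and fold changes and of their table of differential genes were not analysed. The genotype of each value was taken from the comparison's name, from which value is the numerator of the authors' fold change and from the study's own reading of it.

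Here 1 was subtracted to give FPKM, and ratios on the log2 scale, with 1 as pseudocount, were called at a fold of at least 1.3, the minimum in the study's methods but without a q-value. No test was run, because each group has 1 value. A symbol on 2 rows, of which there were 2 at each time, kept the row with the higher mean. Centred ratios are relative to the median of genes with a mean of at least 1 FPKM. Promoters came from RefSeq. The members and lists were chosen with earlier results of these data known. From each list the text names the most abundant gene, the gene with the largest ratio in each direction among those with a mean of at least 1 FPKM, and defining markers that were not listed. Some genes that this rule takes are not reported here. MMP8, TYROBP, CD68, CXCL1, ADGRE1 and, at 21 dpi, CHIL3 were added after their values were seen. The motifs, and the 4 promoters shown, were also chosen then. Alternatives were pseudocounts of 0.1 and 0.01, folds of 1.5 and 2, a minimum mean of 1 FPKM, and centring. Computations used Python 3.11.15, numpy 2.4.6, pandas 2.3.3 and matplotlib 3.10.9, and were tested on simulated data.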

Additional observations from a re-analysis of the deposited data

Results flagged for a closer look

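S100A9, LCN2 and S100A8 passed the fold in favour of ApoE3 at 7 dpi and in favour of ApoE4 at 21 dpi. So did 267 of the 10879 genes listed at both times (2.45%), out of 418 that were higher in ApoE3 at 7 dpi. Most genes with the first call thus also had the second, at a time when ApoE4 was higher for 58.9% of all listed genes. After the median of all genes was subtracted at each time, S100A9 alone of the 3 passed both, and at 21 dpi LCN2, at -0.33, and S100A8, at -0.35, fell short of the fold. The log2 ratio at 7 dpi minus that at 21 dpi was 2.04 for S100A9, 1.43 for LCN2 and 1.31 for S100A8. Relative to the median of all genes at each time, the differences were 1.62, 1.0 and 0.88. Each ratio rests on 1 value per group, and the difference between the times was not tested.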

How the results depend on the processing

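With pseudocounts of 0.1 and 0.01, all 42 ratios of single genes kept their sign, and with either one LTF passed the fold in 2 more comparisons: it made 4 genes higher in ApoE3 at 7 dpi in place of 3, a direction fixed by its listing, and 2 higher at 21 dpi in ApoE3 in place of 1. A fold of at least 2 left 0 genes of the set higher in ApoE3 at 7 dpi, in place of 3, and 1 higher in ApoE4 at 21 dpi (S100A9), in place of 5. For 21 against 7 dpi in ApoE3, a fold of 1.5 or 2 left 0 genes higher in place of 1, and a fold of 2 left 1 lower in place of 3. In ApoE4, a fold of 1.5 or 2 left 0 lower in place of 1. Stricter folds keep fewer genes by construction. Subtracting the median of all genes left 2 genes higher in ApoE4 at 21 dpi in place of 5, and gave 2 genes lower at 21 than at 7 dpi in ApoE4 in place of 1 (CSF3R, joined by S100A8). A minimum mean of 1 FPKM left out LTF between genotypes at 7 dpi and between times in ApoE4. In all, 37 counts under these alternatives were within 1.5 times those reported and 11 were not. Some of the 37 were counts of 0 that stayed at 0, for which such a factor says nothing. No ratio past the fold in the main setting changed sign. S100A8 at 21 against 7 dpi in ApoE4 was short of the fold at 0.11, and centring turned it to -0.42, past the fold. FPKM do not keep the number of reads, so the counting error is unknown, and it bears most on LTF and NGP, which had the lowest values. No paired analysis was possible because each group has 1 value.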

Other observations

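The FPKM of all listed genes summed to 1669246 in ApoE3 and 1669456 in ApoE4 at 7 dpi. At 21 dpi the sums were 1513692 in ApoE3 and 2050283 in ApoE4, and the 10 genes with the highest FPKM made up 19.2% and 20.2% of them. Of the 14125 genes listed at 7 dpi, 3246 were not listed at 21 dpi, and 1032 of those had a mean of at least 100 FPKM at 7 dpi. They included CEBPA, a C/EBP factor of granulocyte development, with 185 FPKM in ApoE3 and 281 FPKM in ApoE4, and CSF2RA, so that the genes around CSF3R are covered less fully at the later time.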
